A study of Mus musculus with 8 samples.

Results

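The genes described here are the NF-kB subunits, the kinase complex that activates them and their feedback inhibitors. They were chosen by name as 10 of 750 immune genes that a NanoString panel for mouse tumors counts with 1 probe each, and all 10 were found. The samples were 8 peritoneal tumors grown from MC38, a mouse colon cancer cell line, implanted into the peritoneum of wild-type male C57BL/6 mice of 7 to 8 weeks. In 4 tumors the mice received PBS, and in 4 they received the STING agonist RR-CDA, a synthetic cyclic dinucleotide, as 2 intraperitoneal injections of 15 µg, with the first injection on day 7 and the tumors collected 10 days after it. RNA was taken from whole tumor tissue, so each value is a mix of cancer cells and host cells, and fewer cells of a type cannot be told apart from less RNA per cell. The study pooled these tumors from 2 experiments, but which tumor came from which, and whether each came from its own mouse, is not given in the sources used here, so p-values measure the spread between these samples and no term for the experiment could be fitted. The immune genes summed to between 241506 (STING agonist 2) and 414698 (STING agonist 4) counts per tumor, and all 10 NF-kB genes lay above the background count of 8.62 set by the negative control probes, at 52 to 1896 raw counts.

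NF-kB is a family of transcription factors that bind DNA as pairs of subunits and are held in the cytoplasm of resting cells by inhibitor proteins such as the product of Nfkbia. The IKK complex, built from the kinases encoded by Chuk and Ikbkb and the scaffold encoded by Ikbkg, marks these inhibitors for degradation, and Chuk also drives the processing of the Nfkb2 precursor in the slower, non-canonical arm. Free NF-kB switches on cytokine, chemokine and survival genes as well as Nfkbia and Tnfaip3, whose products shut the pathway down again, and STING, best known for interferon induction, also activates it.

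Before the values, a pair of control tumors needs naming. PBS 2 and PBS 4 differed by less than the sampling noise: chi-square divided by its degrees of freedom was 0.404 over 358 genes, where the other 11 pairs within a group gave 5.89 to 12.6. Their mean entered as a single control, so that 3 controls stood against 4 treated tumors. Whether PBS 2 and PBS 4 are 2 tumors or 1 RNA under 2 labels was not tested. Values are normalized counts, meaning counts divided by a factor that sets the geometric mean over 20 housekeeping genes equal between tumors. Levels are compared between tumors for 1 gene at a time, because probes differ in efficiency.

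No gene of the panel reached an adjusted p under 0.05 in edgeR's quasi-likelihood test, or 0% of 750 genes, and the lowest adjusted p was 0.175. At an unadjusted p under 0.05, 132 genes were higher in the treated tumors (17.6% of the panel) and 10 were lower (1.33%). With TMM scaling, which assumes that most genes of the panel do not differ, the same rule gave 84 higher and 40 lower, and DESeq2's Wald test with housekeeping scaling called 44 genes at an adjusted p under 0.05. The unadjusted total of 142 was 85 without STING agonist 1 and 89 without STING agonist 4, and edgeR called 7 genes at an adjusted p under 0.05 without STING agonist 3 and 1 without PBS 3. Of the 10 NF-kB genes, 1 was higher at an unadjusted p under 0.05, 0 were lower and 0 passed the adjusted threshold in either tool. The treated tumors all lay above the controls for 2 of the 10 genes, against 16.8% of the panel, and all below for 0, against 1.47%; without PBS 3 they lay above for 5 of the 10 (31.9% of the panel), without STING agonist 3 for 4 (22.8%), and with TMM scaling for 0 (9.33%). The log2 fold change was above 0 for all 10 with housekeeping scaling, against 71.1% of the panel, and below 0 for 7 of them with TMM scaling, against 52.4% of the panel. The NF-kB genes had a median log2 fold change of 0.18, beside 0.22 for the panel, and 4 of the 10 lay above the panel median. Without the mean of PBS 2 and 4 their median was 0.07, beside 0.16 for the panel, and without PBS 3 it was 0.28, beside 0.37. TMM scaling moved the panel median to -0.02 and that of the NF-kB genes to -0.06. With 10 genes, the shares at an unadjusted p under 0.05 and without overlap are near those of the panel, and the small differences below are to be read against that shift.

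**Figure D1:**
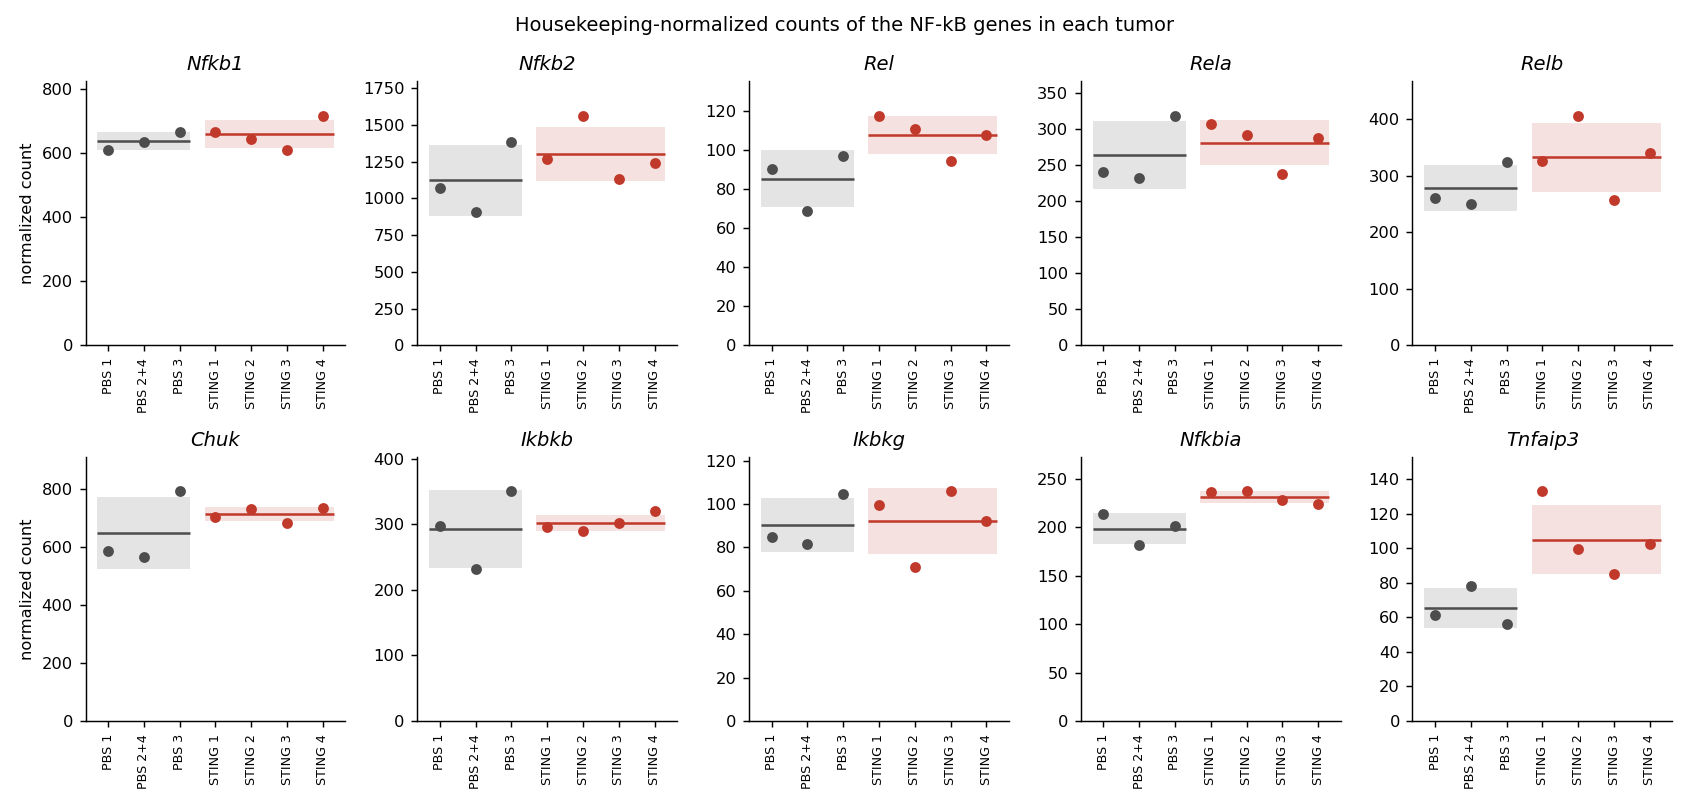
Normalized counts of the 10 NF-kB genes in each sample, from 0, with controls in gray and treated tumors in red; lines are group means and bands are 1 SD (n = 3 and n = 4). With this housekeeping scaling the groups are apart for Nfkbia and Tnfaip3 and overlap for the other 8 genes, and with TMM scaling they overlap for all 10.

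Among the subunits, Rela, which encodes p65, the main activating subunit, measured 241 normalized counts in PBS 1, 232 in the mean of PBS 2 and 4, and 318 in PBS 3. The treated tumors 1 to 4 gave 307, 292, 237 and 288. PBS 3 was the highest of all 7 samples and the treated values lay inside the range of the controls. The log2 fold change of Rela was 0.09 (95% confidence interval -0.31 to 0.49), or -0.15 with TMM scaling, and with each sample left out in turn it ran from 0.01 (without the mean of PBS 2 and 4) to 0.25 (without PBS 3). Nfkb1, which encodes p105 and its product p50, was the most even of the subunits, at 611, 635 and 668 in the controls and 667, 646, 612 and 718 in the treated tumors. The difference was 0.05 on the log2 scale (-0.25 to 0.35), or -0.21 with TMM scaling and 0.01 to 0.09 with a sample left out (lowest without STING agonist 4 and highest without STING agonist 3), and only STING agonist 4 stood above the highest control.

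Nfkb2 and Relb encode the pair of subunits of the non-canonical arm. Nfkb2 measured 1072, 910 and 1388 in the controls and 1270, 1565, 1135 and 1242 in the treated tumors. STING agonist 2 was the highest and the mean of PBS 2 and 4 the lowest, and the groups overlapped. The log2 fold change of Nfkb2 was 0.21 (-0.21 to 0.63), or -0.01 with TMM scaling, 0.08 without the mean of PBS 2 and 4 and 0.39 without PBS 3. Relb gave 260, 250 and 324 in the controls and 325, 406, 258 and 341 in the treated tumors, again with STING agonist 2 highest and the mean of PBS 2 and 4 lowest. Its log2 fold change was 0.25 (-0.18 to 0.69), or 0.02 with TMM scaling, 0.14 without STING agonist 2 and 0.38 without PBS 3, with 3 of 4 treated tumors above every control and STING agonist 3 within the range of the controls. Over the 519 immune genes with a mean of at least 20 counts, the gene nearest to Relb in its centred pattern was Nfkb2, with a root mean square difference of 0.10 on the log2 scale over the 7 samples, a pair singled out after its values were seen. From the side of Nfkb2, Tfe3 (0.08) and Atm were nearer than Relb. This measure keeps the difference between the groups, so genes with a like log2 fold change tend to come out near.

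Rel encodes c-Rel, a subunit best known from lymphocytes and myeloid cells. Its normalized counts were 90.2, 68.8 and 96.6 in the controls and 118, 111, 94.5 and 108 in the treated tumors. All treated tumors but STING agonist 3 stood above the controls, and that tumor missed PBS 3 by 2.14 normalized counts. The mean of the controls was 85.2 ± 14.6 (SD, n = 3) and that of the treated tumors 108 ± 9.63 (SD, n = 4), 1.26-fold higher, with a log2 fold change of 0.33 (-0.14 to 0.80), or 0.09 with TMM scaling and 0.20 (without the mean of PBS 2 and 4) to 0.43 (without PBS 3) with a sample left out, and an adjusted p of 0.420 in edgeR (0.199 to 0.835 over the alternatives). Among the subunits this was the highest log2 fold change, and 40.7% of the panel had a higher one. The genes whose centred pattern over the 7 samples was nearest to that of Rel were Tank (root mean square difference 0.06 on the log2 scale), Pml (0.07) and Ifi35 (0.08). Counting error alone for Rel was 10.8% in the controls and 10.1% in the treated tumors. Whether the order of these genes goes beyond it was not tested.

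The IKK genes had log2 fold changes of 0.14 or less. Chuk, which encodes IKK-alpha, measured 588, 567 and 794 in the controls and 705, 733, 685 and 735 in the treated tumors. Ikbkb, which encodes IKK-beta, measured 297, 232 and 351 in the controls and 297, 291, 302 and 320 in the treated tumors. For both genes all treated tumors lay inside the range of the controls. Ikbkg, which encodes the scaffold NEMO, ranged from 81.8 to 105 in the controls and from 70.8 to 106 in the treated tumors. The log2 fold changes were 0.14 for Chuk (-0.22 to 0.49), 0.04 for Ikbkb (-0.35 to 0.43) and 0.03 for Ikbkg (-0.48 to 0.53). With TMM scaling all 3 were below 0, at -0.10, -0.19 and -0.22, and without the mean of PBS 2 and 4 Ikbkb was at -0.10 and Ikbkg at -0.04. Ikbkg was also below 0 without PBS 1, without STING agonist 1 and without STING agonist 3, at -0.02, -0.01 and -0.05. Without PBS 3 all 3 were further above 0, with Chuk at 0.31, Ikbkb at 0.19 and Ikbkg at 0.15, and the lowest value of Chuk with a sample left out was 0.05, without the mean of PBS 2 and 4.

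**Figure D2:**
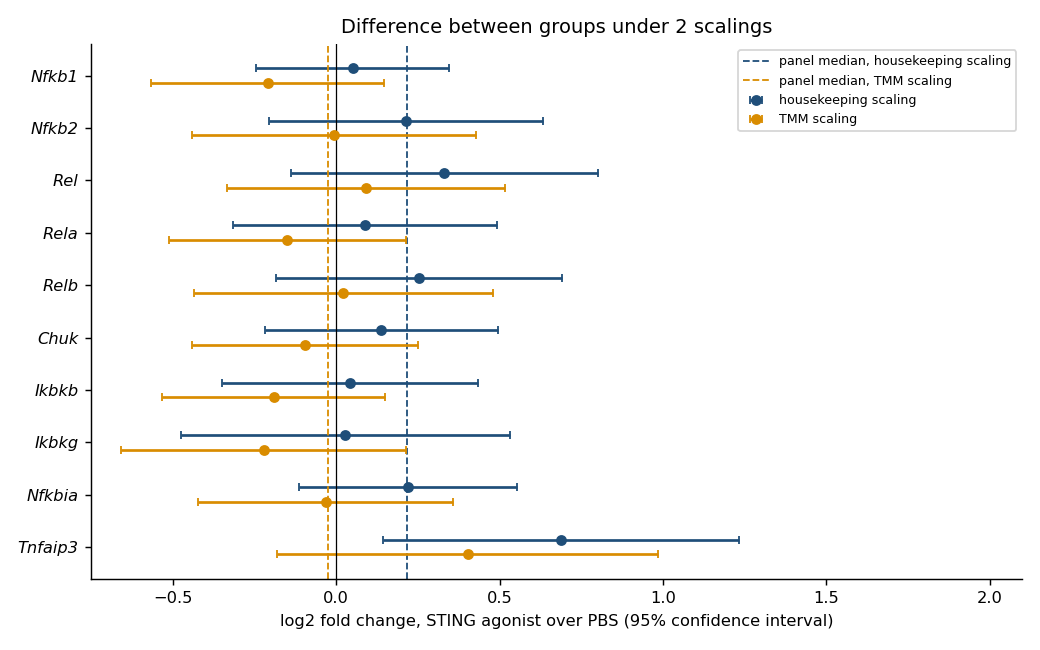
Log2 fold change of treated over control tumors for each NF-kB gene, with 95% confidence intervals, under housekeeping scaling (blue) and TMM scaling (orange); dashed lines are the panel medians of 0.22 and -0.02. The interval of Tnfaip3 lies above 0 with housekeeping scaling and spans 0 with TMM scaling.

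Of the feedback inhibitors, Nfkbia encodes I-kappa-B-alpha, which binds NF-kB and carries it out of the nucleus. It measured 213, 181 and 201 in the controls and 236, 237, 228 and 224 in the treated tumors. Every treated tumor lay above every control, with 10.7 normalized counts between STING agonist 4 and PBS 1. The means were 199 ± 16.2 (SD, n = 3) and 231 ± 6.28 (SD, n = 4), a ratio of 1.17. The log2 fold change was 0.22 (-0.12 to 0.55), equal to the panel median to 2 decimals, and the adjusted p was 0.452 in edgeR (0.228 to 0.981 over the alternatives). With TMM scaling it was -0.03 and the groups overlapped. The treated tumors spread by 2.71% (coefficient of variation), where counting error alone gives 6.86%. A spread over 4 values is itself uncertain, and whether it lies below counting error was not tested. The nearest pattern was that of Ifngr1 (root mean square difference 0.05 on the log2 scale), and whether this rank goes beyond counting error was not tested.

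Tnfaip3 encodes A20, which edits ubiquitin chains upstream of IKK. It measured 61.1, 78.2 and 56.4 in the controls and 133, 99.4, 85.1 and 102 in the treated tumors. STING agonist 1 was the highest and PBS 3 the lowest, and no treated tumor overlapped a control. The gap was narrow, at 6.90 normalized counts between STING agonist 3 and the mean of PBS 2 and 4. Taken as separate samples, PBS 4 stood at 82.1 and STING agonist 3 at 83.5. Tnfaip3 was 1.61-fold higher in the treated tumors, at 105 ± 20.1 (SD, n = 4) against 65.2 ± 11.5 (SD, n = 3). Its log2 fold change was 0.69 ± 0.24 (SE; 95% confidence interval 0.14 to 1.23), higher in 4 of 4 treated tumors, with an adjusted p of 0.205 in edgeR (0.0939 to 0.464 over the alternatives), and it was the only NF-kB gene with an unadjusted p under 0.05. Relative to the panel median the difference was 0.47 with housekeeping scaling and 0.43 with TMM scaling, where the log2 fold change was 0.40 (-0.18 to 0.98), the unadjusted p was not under 0.05 and the groups overlapped. The unadjusted p was also not under 0.05 without PBS 1, without PBS 3 or without STING agonist 1, where the log2 fold changes were 0.64, 0.59 and 0.55. On the panel, 21.6% of genes had a higher log2 fold change than Tnfaip3. The nearest patterns were those of the interferon-induced genes Isg20 (root mean square difference 0.13 on the log2 scale) and Cmpk2 (0.15) and of the chemokine gene Ccl5 (0.16). The measure keeps the difference between the groups. Counting error alone for Tnfaip3 was 12.0% in the controls and 10.3% in the treated tumors, and whether this order goes beyond it was not tested.

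**Figure D3:**
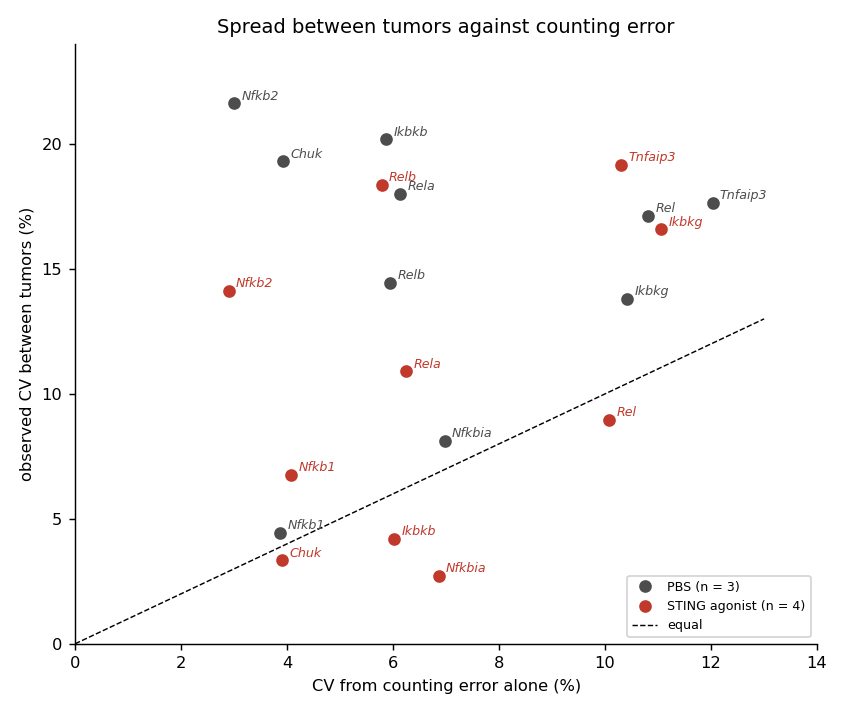
Observed coefficient of variation between tumors against that expected from counting alone, in percent, for each NF-kB gene in the controls (gray, n = 3) and the treated tumors (red, n = 4); the dashed line marks equality. The spread was over 2 times the counting error for 5 genes in the controls and 2 in the treated tumors, and below it for 4 genes in the treated tumors.

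The controls followed a shared order. PBS 3 was the highest control for 8 of the 10 NF-kB genes and the mean of PBS 2 and 4 the lowest for 8, where the panel had PBS 3 highest for 60.4% and the mean of PBS 2 and 4 lowest for 53.6% of its genes. Tnfaip3 ran the other way, with PBS 3 lowest and the mean of PBS 2 and 4 highest. For Nfkb2 the coefficient of variation was 21.6% in the controls and 14.1% in the treated tumors, against a counting error near 3% in both groups. For Chuk it was 19.3% and 3.34%, against 3.92% and 3.91%.

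Ratios within a tumor do not depend on scaling, and they are given as descriptions without a test. The log2 ratio of Tnfaip3 over Rela was -1.98, -1.57 and -2.50 in the controls and -1.21, -1.55, -1.48 and -1.49 in the treated tumors. The treated tumors were all higher than these controls, but the mean of PBS 2 and 4 and STING agonist 2 nearly met. With PBS 2 and PBS 4 taken as separate samples, PBS 4 was at -1.44, above 3 of the 4 treated tumors, and the groups overlapped. The mean difference was 0.58, and 0.34 without PBS 3, an alternative chosen after seeing the data. The log2 ratio of Rel over Rela was higher by 0.25 in the treated tumors, where 3 of 4 stood above every control and PBS 1 overlapped them. For Nfkb2 over Nfkb1 the mean log2 ratios were 0.80 ± 0.27 (SD, n = 3) and 0.97 ± 0.21 (SD, n = 4). The mean difference was 0.04 without the mean of PBS 2 and 4, 0.08 without STING agonist 2 and 0.31 without PBS 3, beside 0.18 with all 7 samples. Relb over Rela differed by 0.15 (0.07 without STING agonist 2), Nfkbia over Rela by 0.12 (-0.01 without PBS 3, 0.05 without STING agonist 3 and 0.24 without PBS 1) and Chuk over Ikbkb by 0.09 (0.01 without PBS 1, 0.06 without STING agonist 2 and 0.16 without the mean of PBS 2 and 4), all with overlapping groups.

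**Figure D4:**
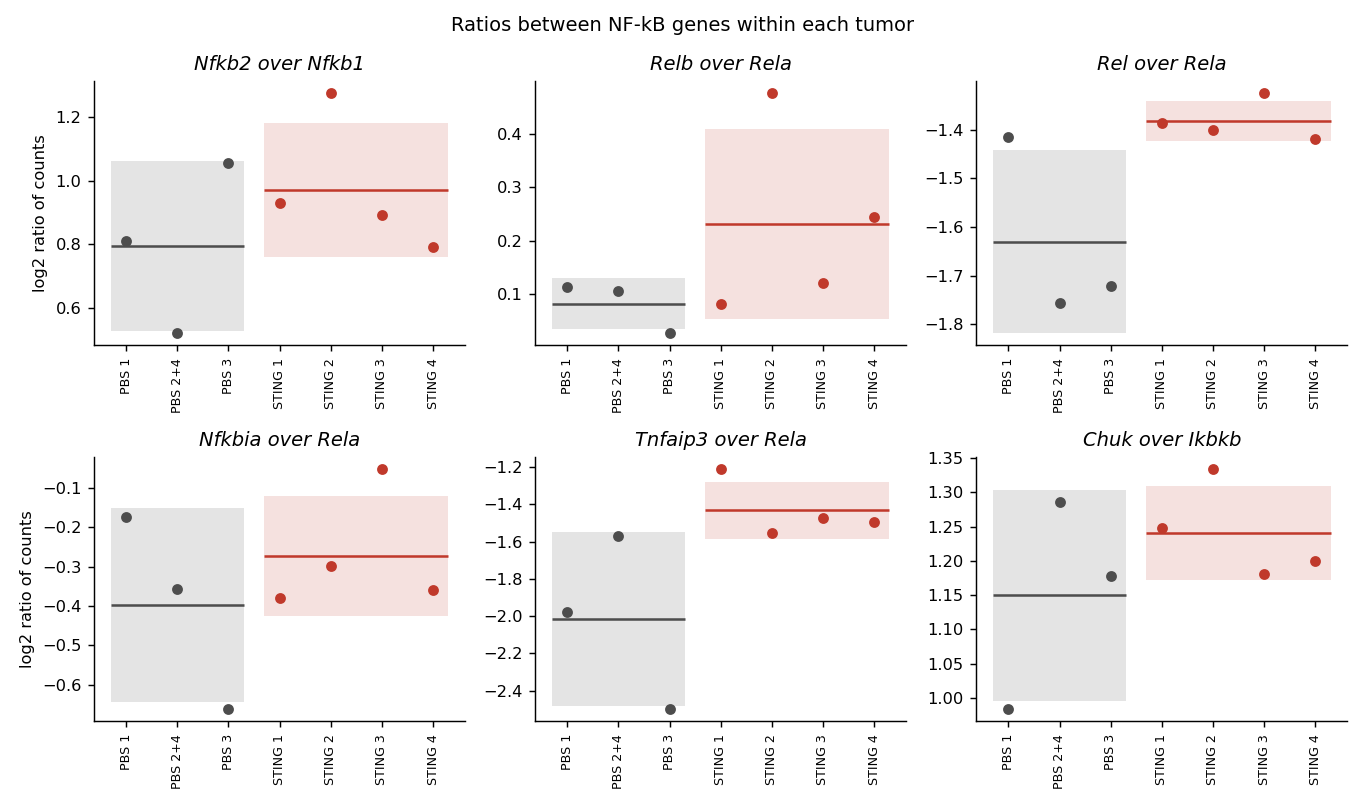
Log2 ratios of counts between pairs of NF-kB genes within each tumor, controls in gray and treated tumors in red, with group means and bands of 1 SD (n = 3 and n = 4); the vertical axes do not start at 0. The groups are apart only for Tnfaip3 over Rela, and there only with PBS 2 and 4 averaged, since PBS 4 alone was at -1.44.

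Promoters of the NF-kB genes were searched for the letters of the motif that NF-kB binds. RefSeq promoters on GRCm38.p6 were matched by symbol for 7 of the 10 genes, in 13 entries, and Nfkb1, Relb and Ikbkb had none. The 250 bases before each start were searched on both strands for the kappaB consensus, for GGGANNTTC, which overlaps it, and for GAAANNGAA, the core of the interferon-stimulated response element. Of all 32851 promoters, 3.9% held a match to the kappaB consensus, 3.23% to GGGANNTTC and 7.13% to GAAANNGAA. The kappaB consensus matched in Nfkb2, Rel, Nfkbia and Tnfaip3, 4 of the 7 genes or 6 of the 13 entries, and in none of the entries of Rela, Chuk and Ikbkg. The second entry of Tnfaip3 held no match. A match describes letters, not a binding site or a cause, and no match says only that these letters are not in this window. The promoters of both inhibitors, whose groups did not overlap, are shown with kappaB matches in capitals. The first Tnfaip3 entry lies on the minus strand at chr10:19015411-19015660, with matches from 125 to 116 and from 12 to 3 bases before the start.
Tnfaip3: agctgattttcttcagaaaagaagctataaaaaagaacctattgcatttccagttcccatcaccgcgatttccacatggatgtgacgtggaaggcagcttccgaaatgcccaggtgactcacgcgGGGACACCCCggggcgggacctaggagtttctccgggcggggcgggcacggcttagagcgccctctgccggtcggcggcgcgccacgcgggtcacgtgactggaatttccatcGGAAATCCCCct
Nfkbia lies on the minus strand at chr12:55492648-55492897, with a kappaB match from 29 to 20 bases before the start, 2 matches to GGGANNTTC, 1 of which overlaps it, and 1 match to GAAANNGAA.
Nfkbia: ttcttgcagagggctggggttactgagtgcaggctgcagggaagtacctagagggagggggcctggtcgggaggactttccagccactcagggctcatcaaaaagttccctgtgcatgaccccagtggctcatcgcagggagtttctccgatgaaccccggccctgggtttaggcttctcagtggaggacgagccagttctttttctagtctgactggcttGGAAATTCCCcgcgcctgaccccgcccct
Shorter windows show the matches of the subunit genes, Rel on the minus strand at chr11:23771027-23771086 and the first entry of Nfkb2 on the plus strand at chr19:46304677-46304736.
Rel: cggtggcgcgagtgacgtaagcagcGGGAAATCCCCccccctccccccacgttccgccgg
Nfkb2: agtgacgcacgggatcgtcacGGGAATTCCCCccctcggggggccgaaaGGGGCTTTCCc

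The genes around NF-kB were described from lists of the pathway. Upstream receptors and ligands had 21 genes on the panel, 4 of them (19%, beside 17.6% of the panel) higher at an unadjusted p under 0.05 and 0 lower, with a median log2 fold change of 0.22, or -0.03 with TMM scaling and 0.15 to 0.36 with a sample left out (lowest without the mean of PBS 2 and 4 and highest without PBS 1). None of the 4 lists had a gene at an adjusted p under 0.05 in edgeR. The count of 4 was 2 without the mean of PBS 2 and 4, without STING agonist 1 or without STING agonist 4. The costimulatory receptor gene Cd40 measured 35.7, 54.5 and 64.4 in the controls and 104, 84.5, 92.4 and 119 in the treated tumors, 1.94-fold higher, with an adjusted p of 0.175 in edgeR (0.0295 to 0.437 over the alternatives). Il1b, which encodes the cytokine interleukin-1 beta, ranged from 13.2 to 37.9 in the controls and from 46.7 to 189.9 in the treated tumors, with STING agonist 1 highest. Tlr9 and Ltb had log2 fold changes of 1.16 and 1.28, and the treated tumors lay above the controls for both. With TMM scaling the treated tumors lay above the controls for Cd40 and Ltb, and the groups overlapped for Il1b and Tlr9. Il1a and Tnfrsf13c, at -0.80 and -0.29, had groups that overlapped, and the mean count of Il1a was under the background. Tnfrsf13c was at 0.03 without PBS 1 and -0.54 with TMM scaling or without STING agonist 3. Without PBS 1 Il1a was at -1.20, with an unadjusted p under 0.05, and without PBS 3 Il1a was at -0.36.

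Upstream adaptors and kinases had 23 genes on the panel. Of these, 4 (17.4%, near the 17.6% of the panel) were higher at an unadjusted p under 0.05 and 0 lower. Their median was 0.14, or -0.09 with TMM scaling, where 1 was higher and 1 lower, beside 84 and 40 of the 750 panel genes. The median was 0.03 without the mean of PBS 2 and 4, 0.09 without PBS 1 or STING agonist 1, and 0.33 without PBS 3. The count of 4 was 2 without PBS 1, without STING agonist 1 or without STING agonist 3, and 1 without STING agonist 4. The bacterial peptidoglycan sensor Nod1 and its kinase partner Ripk2 measured 1.74-fold and 1.39-fold higher. Nod1 ranged from 45.1 to 70.3 in the controls and from 77.9 to 106 in the treated tumors, and Ripk2 from 139 to 152 and from 185 to 221. The treated tumors lay above the controls for both, as for Map3k1 (log2 fold change 0.80), while Irak2 (0.78) overlapped. With TMM scaling Nod1 kept an unadjusted p under 0.05 and groups apart, and Ripk2, Map3k1 and Irak2 did not, at 0.22, 0.52 and 0.50, with overlapping groups. Map3k1 was at 0.53 without STING agonist 1. Tollip was at -0.18 and Card9, under the background, at -0.34, and the groups overlapped for both. Tollip was the gene lower with TMM scaling, at -0.44 with an unadjusted p under 0.05 and all treated tumors below the controls. Card9 was at -0.53 with TMM scaling, -0.78 without the mean of PBS 2 and 4 and 0.49 without PBS 3.

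Known NF-kB target genes had 24 on the panel. At an unadjusted p under 0.05, 7 were higher (29.2%, beside 17.6% of the panel) and 0 lower. Their median was 0.47, or 0.20 with TMM scaling, where 4 were higher, beside 84 of the 750 panel genes. Without PBS 1 the median was 0.29, beside 0.18 for the panel, without STING agonist 4 it was 0.31, beside 0.17, and without PBS 3 it was 0.61, beside 0.37. Irf1, which encodes an interferon regulatory factor, measured 1160, 865 and 1016 in the controls and 2055, 2083, 1472 and 2558 in the treated tumors. All 4 treated tumors lay above the controls, the log2 fold change was 1.01 ± 0.21 (SE), and the adjusted p was 0.175 in edgeR and 0.00287 in DESeq2, the lowest of the alternatives, which reached up to 0.409; without STING agonist 3 it was 0.0477 in edgeR. The chemokine genes Cxcl10 and Ccl5 measured 1.81-fold and 1.55-fold higher and the dendritic cell maturation gene Cd83 2.93-fold, with no overlap. With TMM scaling Ccl5 was at 0.35 on the log2 scale, beside 0.63, its unadjusted p was not under 0.05, and the groups overlapped for Ccl5 and Cd83 and stayed apart for Irf1 and Cxcl10. Csf2 and Sele had log2 fold changes of -0.55 and -0.42, with mean counts under the background, and Csf2 was at 0.24 without PBS 3 and -0.88 without the mean of PBS 2 and 4. Sele ran from -0.87 without STING agonist 4 to -0.16 without STING agonist 3, and was at -0.65 with TMM scaling. Other NF-kB regulators had 5 genes on the panel. Of these, 3 were higher at an unadjusted p under 0.05 (60% of only 5, beside 17.6% of the panel) and 0 lower. Their median was 0.55, or 0.28 with TMM scaling, where 1 was higher, beside 84 of the 750 panel genes. The count of 3 was 1 without PBS 1, without STING agonist 1 or without STING agonist 4. They were Nlrc5 (log2 fold change 0.91), Socs1 (0.55) and Tnfrsf14 (0.69), beside Cyld, a deubiquitinase, at 0.40. The groups were apart for Socs1 and Cyld and overlapped for Nlrc5 and Tnfrsf14, with 3 of 4 treated tumors above every control, and without the mean of PBS 2 and 4 Tnfrsf14 was at 0.46. With TMM scaling the groups overlapped for all 4, Socs1 was at 0.28 and Cyld at 0.15, and only Nlrc5 kept an unadjusted p under 0.05. With DESeq2's Wald test, 5 genes named from these lists passed an adjusted p under 0.05: Cd40, Il1b, Irf1, Cxcl10 and Cd83. On the panel 44 of 750 genes passed. The 5 were counted only among the named genes, which were chosen from each list by unadjusted p, and not over the whole lists.

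**Figure D5:**
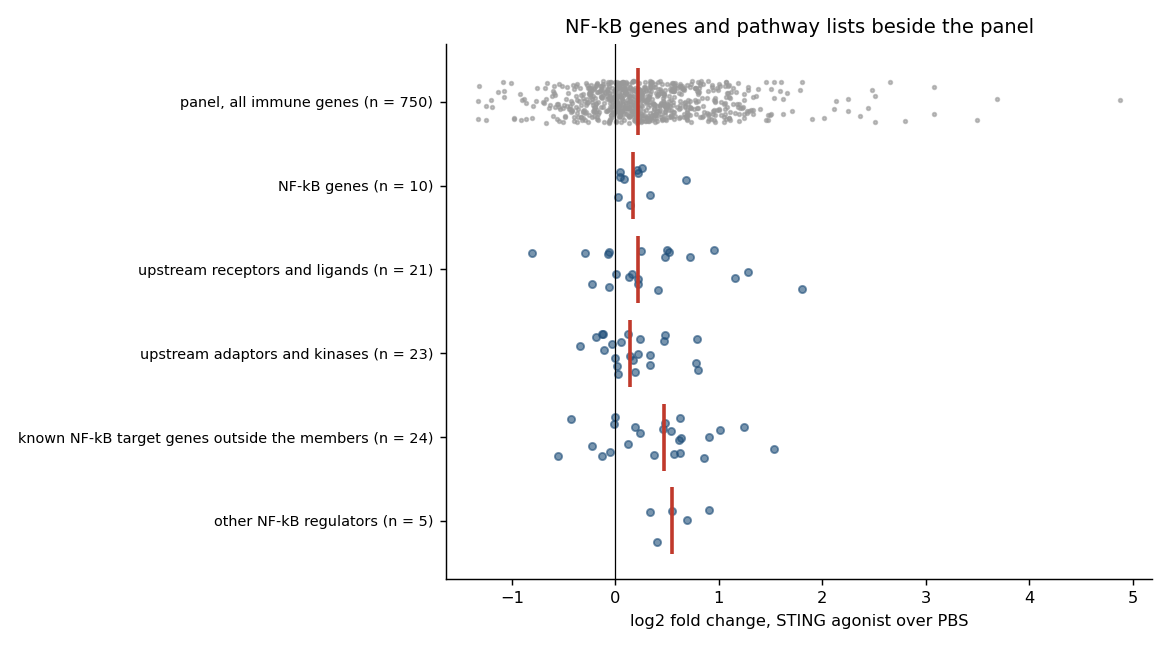
Log2 fold changes of treated over control tumors for all 750 immune genes, the 10 NF-kB genes and the 4 pathway lists, each point a gene and each red bar the median. The NF-kB genes lie near the panel median of 0.22, and the target genes have a median of 0.47; with TMM scaling these medians are -0.02 for the panel, -0.06 for the NF-kB genes and 0.20 for the targets.

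Markers of cell types were also compared between the groups, and their part in these results was not tested. Ptprc, which encodes the leukocyte antigen CD45, measured 110, 42.7 and 113 in the controls and 261, 169, 142 and 272 in the treated tumors, 2.39-fold higher with no overlap. The 7 T cell markers summed to 177, 109 and 198 in the controls and 417, 225, 212 and 390 in the treated tumors. For each list the gene with the highest probe counts is named, which does not rank the genes by RNA level: here Cd3d, with Cd4 under the background. By the unadjusted rule 3 of the 7 were higher, Cd3e, Cd3g and Cd8a, where 17.6% of the panel were higher and 1.33% lower. In the lists below, Itgax of the dendritic cell markers and Kdr of the endothelial markers were also higher. All 5 genes were named after their values were seen. The 7 macrophage markers (highest counts Cd68) summed to 1.26-fold the controls, with 0 genes higher by the unadjusted rule and 1 lower, Cd163, named after its values were seen. The log2 fold of that sum was 0.33, with 0.06 without the mean of PBS 2 and 4, 0.61 without PBS 3 and 0.11 with TMM scaling. The 4 NK cell markers (highest counts Klrd1) summed to 1.33-fold, a log2 fold of 0.42, or 0.27 without the mean of PBS 2 and 4, 0.56 without STING agonist 2 and 0.14 with TMM scaling. The mean sum went from 46.7 in the controls to 65.1 for 4 dendritic cell markers (highest counts Ccr7, with Xcr1 under the background), a log2 fold of 0.48, or 0.18 with TMM scaling, 0.29 without STING agonist 1 and 0.31 without PBS 1. Those above the background were not alike: Itgax was at 2.02, Ccr7 at 0.34 and Flt3, named after its values were seen, at -0.38. The mean sum went from 416 to 476 for 4 neutrophil markers (highest counts S100a8, with Mpo under the background), where the log2 fold of the sum was 0.20, with -0.01 without STING agonist 1, 0.48 without the mean of PBS 2 and 4 and -0.12 with TMM scaling. Endothelial markers (highest counts Pecam1) were 1.37-fold, a log2 fold of 0.45, or 0.18 with TMM scaling. The sum of 3 epithelial markers (highest counts Cdh1) was 0.864-fold, a log2 fold of -0.21, or -0.05 without PBS 3 or without STING agonist 2, -0.32 without STING agonist 1 and -0.47 with TMM scaling. These 3 genes did not move together: Cdh1 and Epcam were at -0.68 and -0.39, and Muc1 was at 0.63. By the unadjusted rule 0 of the 3 were higher and 0 lower, and Epcam and Muc1 were named after their values were seen. The sum of 5 fibroblast markers was 0.886-fold, a log2 fold of -0.17, or -0.44 with TMM scaling and -0.11 without STING agonist 3. Col3a1, with the highest mean count over the samples, was lower at an unadjusted p under 0.05, while Col1a1, named after its values were seen, was higher. Of 5 B cell markers only Cd79b was above the background, and their sum was 1.23-fold, a log2 fold of 0.30, with 0.11 without the mean of PBS 2 and 4, 0.70 without PBS 3 and 0.07 with TMM scaling. The 6 hepatocyte markers (highest counts Ambp) summed to between 29.1 and 55.6 in all samples but STING agonist 4, which had 1297, and Ambp was higher by the unadjusted rule, with a log2 fold change of 4.88, or 0.18 without that tumor. Without STING agonist 4 the log2 fold change of Tnfaip3 was 0.70. The labels give the tissue as colon, and the epithelial marker Cdh1 measured from 11.2 to 35.1 normalized counts, with a log2 fold change of -0.68, or -0.92 with TMM scaling, where its unadjusted p was under 0.05 and the treated tumors lay below the controls.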

How the data were processed

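Gene expression was measured in 8 tumors on the nCounter PanCancer Immune Profiling mouse panel, and the authors deposited the raw count of each of its 784 probes (750 immune genes, 20 housekeeping genes, 8 negative and 6 positive controls), without scaling or background subtraction. The lowest count of any probe was 1. Groups came from the sample labels; dose, injections, age and collection day came from the labels and the study's methods, which name nSolver and R without a version.

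Counts were tested with edgeR 4.0.16 in R 4.3.3 (quasi-likelihood, two-sided, Benjamini-Hochberg over 750 genes), with library sizes from the housekeeping geometric mean and no low-count filter. PBS 2 and PBS 4 entered as their rounded mean. The NF-kB genes and the pathway and marker lists were chosen with earlier results of these data known. Named genes were the NF-kB genes; the 3 nearest patterns of the 3 NF-kB genes with the lowest unadjusted p (for Nfkbia only the nearest is reported), in log2(normalized count + 1); of each list up to 4 higher and 2 lower genes by unadjusted p; Ptprc; and the gene with the highest mean probe count of each marker list. The nearest gene to Relb was named after its values were seen. The test was also run on simulated data, whose outcome is not reported here, so no result rests on it. Alternatives were other scalings, a filter at a mean of 20 counts, negative control subtraction, DESeq2 1.42.0, limma 3.58.1, the methods' per-gene test, other sample sets and a replicate block. Ratios and sums were computed with pandas 2.3.3.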

Additional observations from a re-analysis of the deposited data

Results flagged for a closer look

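Among 65 genes, ratios and marker sums examined in the 4 treated tumors, 4 had a tumor far from the others, where chance gives about 1 in 20, or 3.25. For Nod1, STING agonist 3 was the lowest of the treated tumors, with a gap to the next of 0.864 of the group's range. For Ambp, STING agonist 4 measured 775 normalized counts and the other treated tumors 2.48 to 11.9, a gap of 0.988 of the range. For the summed hepatocyte markers, STING agonist 4 was again the highest, with a gap of 0.986. For the summed B cell markers, STING agonist 2 was the lowest, with a gap of 0.863. None of the 10 NF-kB genes was among them.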

How the results depend on the processing

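Under 23 alternatives, 3 of the 10 NF-kB genes (Rel, Relb and Tnfaip3) and 30 of the 39 other named genes kept their direction, and no NF-kB gene passed an adjusted p under 0.05. Il1a, which kept its direction, and Tnfrsf13c, Card9, Csf2 and Sele had values under only 22 of the 23. The adjusted p of Tnfaip3 ranged from 0.0939 to 0.464 and its log2 fold change from 0.40 to 0.84. The cause of the differences below was not tested. Counts of 52 to 143 for Rel, Ikbkg and Tnfaip3 carried a counting error of 10.1% to 12.0%, which limits the differences that could be detected.

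With TMM scaling the NF-kB genes had a median log2 fold change of -0.064, 0 had an unadjusted p under 0.05 and 0 had groups apart; log2 fold changes turned to -0.21 for Nfkb1, -0.0061 for Nfkb2, -0.15 for Rela, -0.10 for Chuk, -0.19 for Ikbkb, -0.22 for Ikbkg, -0.033 for Nfkbia, -0.17 for S100a8, -0.0095 for Pecam1, -0.026 for Pml, -0.015 for Ifi35 and -0.024 for Ifngr1. With DESeq2 size factors the median was -0.074, with 0 and 0 genes, and the values were -0.22 for Nfkb1, -0.017 for Nfkb2, -0.16 for Rela, -0.11 for Chuk, -0.20 for Ikbkb, -0.23 for Ikbkg, -0.041 for Nfkbia, -0.17 for S100a8, -0.017 for Pecam1, -0.037 for Pml, -0.025 for Ifi35 and -0.032 for Ifngr1. With total count scaling the median was -0.022, with 0 genes at an unadjusted p under 0.05 and 1 with groups apart (8.80% of the panel had the treated tumors above), and the values were -0.15 for Nfkb1, -0.11 for Rela, -0.17 for Ikbkb, -0.18 for Ikbkg and -0.039 for S100a8, while the log2 fold change of Chuk was -0.0603. Positive control scaling left 1 NF-kB gene with groups apart, with the treated tumors above for 9.60% of the panel.

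DESeq2's Wald test called 44 panel genes at an adjusted p under 0.05. The methods' per-gene test gave an unadjusted p under 0.05 for 2 NF-kB genes, Nfkbia and Tnfaip3, beside 12.8% of the panel. Sele was at 0.61 after negative control subtraction and Card9 at 0.17 with limma and a pseudocount of 1. With PBS 2 and 4 both left out, which is the same fit as without their mean, Ikbkb was at -0.099 and Ikbkg at -0.038.

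With each of the 7 samples left out in turn, the panel genes past the threshold ranged from 0 to 7 (7 without STING agonist 3 and 1 without PBS 3) and those with an unadjusted p under 0.05 from 85 (without STING agonist 1, with 89 without STING agonist 4) to 160 (without PBS 3). NF-kB genes with an unadjusted p under 0.05 ranged from 0 (without PBS 1, PBS 3 or STING agonist 1) to 1, those with groups apart from 2 to 5 (5 without PBS 3 and 4 without STING agonist 3, beside 31.9% and 22.8% of the panel), and their median log2 fold change from 0.066 without the mean of PBS 2 and 4 to 0.28 without PBS 3. Log2 fold changes ranged from -0.10 to 0.19 for Ikbkb, from -0.046 to 0.15 for Ikbkg, from -0.54 to 0.033 for Tnfrsf13c, from -0.042 to 0.49 for S100a8, from -0.78 to 0.49 for Card9 and from -0.88 to 0.24 for Csf2.

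Replicate numbers did not pair the tumors: deviations of same-numbered tumors correlated at -0.058, -0.082, -0.282 and -0.111. With the replicate number as a block, 83 panel genes and 0 NF-kB genes had an unadjusted p under 0.05, and with all 8 tumors separate and the block, Card9 was at 0.27.

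An alternative chosen after seeing the data left out PBS 3 and STING agonist 3. The NF-kB genes then had a median of 0.32, below the 0.38 of the panel, 8 had the treated tumors above the controls, beside 37.5% of the panel, and the 1 with an unadjusted p under 0.05 was Relb, where Tnfaip3 was not. The difference in log2 ratio of Nfkbia over Rela was -0.0813, and log2 fold changes were 0.42 for Card9, 0.13 for Csf2, 0.040 for Sele and -0.036 for S100a8. The ratios within a tumor were also recomputed on the other sample sets, which was decided after seeing the data.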
